A study of Mus musculus with 335 samples.

Results

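The hepatocyte genes are 32 genes whose RNA is made mainly by hepatocytes, the parenchymal cells of the liver. They were taken by symbol from a table of 20188 genes measured by RNA sequencing in mouse mammary tumours, their metastases and normal tissues, and all 32 were present. They are Alb, Ahsg, Apoa1, Apoa2, Apob, Apoc1, Apoc3, Apoh, Ttr, Serpina1a, Serpina1c, Serpina3k, Cyp2e1, Cyp1a2, Cyp3a11, Hpx, Ambp, Vtn, Fabp1, Cps1, Pck1, G6pc, Tat, Hpd, Hal, F2, Plg, Kng1, Itih1, Itih3, Otc and Ass1. The rule uses their symbols and no measured value.

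The study collected paired primary tumours and metastases from several mouse models to compare gene expression in metastases between models. It holds 335 libraries in 61 groups, from 264 animals or cell cultures. Values are RPKM, reads scaled to the length of the gene model and to the counted reads of the library, averaged over the libraries of each animal. Tests were made with limma on log2(RPKM + 1), with p-values adjusted over all genes tested (Benjamini-Hochberg), and genes under an adjusted p of 0.05 are written as called.

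The liver samples came from 4 settings, and no sample was treated. M6 cells, a mammary tumour line driven by SV40T, had been injected into the heart of FVB mice, and 12 libraries of liver metastases from 7 of these animals were measured, with adjacent liver from 5 of them (animals 1266, 1274, 1278, 1294 and 1297). M6 cells had also been placed orthotopically in mice whose strain entry reads REAR, and liver metastases from 3 of those animals (ms870, ms874 and ms878) came with the primary tumour and a lung metastasis of the same animal. Met1 cells, driven by PyMT, gave 3 libraries of liver metastases and the adjacent livers of 2 FVB animals (6 and 8) after intracardiac injection. 6DT1 cells, driven by cMYC, gave 2 libraries of liver metastases and 1 adjacent liver of a single FVB animal, whose metastases are labelled tail vein and whose liver is labelled intracardiac. Healthy liver came from 4 mice labelled as FVB wild type with no oncogenic driver, although their titles also read FVBxPyMT_F1, and healthy lung came from 4 FVB wild-type mice. Lung metastases and primary tumours were compared over 10 models. The first 5 were orthotopic grafts of 4T1 (BALB, driver unknown), 6DT1 (FVB, cMyc), Mvt1 (FVB, cMYC / VEGF), Met1 (FVB, PyMT) and M6 (REAR, SV40T). The other 5 were MMTV-PyMT mice, which carry PyMT under a mammary tumour virus promoter and form their own tumours, with the strain entries FVB, BL6, BL10, CAST and MOLF, although 1 primary tumour titled FVB has the entry MOLF. Primary tumours were compared with cultures of those 5 lines and of 4T07 and 67NR (both BALB, driver unknown), where the strain entry reads BALB for the M6 cultures and for 1 of the 3 cultures of 6DT1. Each line is a single line, so animals given the same cells are replicates of that line only. Sex and age are not in the labels used here, and metastases and the liver around them were sequenced as bulk tissue. In bulk RNA, fewer hepatocytes in a sample and less of these RNAs in each hepatocyte cannot be told apart.

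Hepatocytes make most proteins of the blood plasma and carry out urea synthesis, amino acid breakdown, glucose release and drug oxidation. The genes are switched on together by a small set of liver transcription factors, among them HNF1, HNF4 and C/EBP proteins. Enzymes are also zoned within the liver lobule, with the urea cycle and glucose release near the portal vein and many cytochromes P450 near the central vein. Albumin and other plasma protein genes change during the acute phase response, the shift in liver output that accompanies inflammation elsewhere in the body.

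Promoters of 25 of the 32 members were found in RefSeq (GRCm38.p6), each from 250 bases before to 50 bases after the start of the gene. Apoc1, Apoc3, Ttr, Serpina3k, Cps1, Plg and Kng1 had no entry matched. The windows of 4 are printed because they span the behaviour of the group: Alb has the highest level in liver, Fabp1 differed between adjacent and healthy liver, Hpx kept the highest share of its liver level in most metastasis libraries, and Ass1 is expressed in nearly every library. Capitals mark matches to any of 4 motifs, searched on both strands. The first, GTTAAT, is part of the site of the liver factor HNF1. The second, TATAAA, has the letters of the TATA box, which positions the start of transcription. The third, TTGCNNAA, is a motif of C/EBP factors. The last, CAAAGTC, is part of the site of the nuclear receptor HNF4. The windows lie at chr5:90460620-90460919 on the plus strand for Alb, chr6:71199629-71199928 on the plus strand for Fabp1, chr7:105600067-105600366 on the minus strand for Hpx and chr2:31470020-31470319 on the plus strand for Ass1.
Alb: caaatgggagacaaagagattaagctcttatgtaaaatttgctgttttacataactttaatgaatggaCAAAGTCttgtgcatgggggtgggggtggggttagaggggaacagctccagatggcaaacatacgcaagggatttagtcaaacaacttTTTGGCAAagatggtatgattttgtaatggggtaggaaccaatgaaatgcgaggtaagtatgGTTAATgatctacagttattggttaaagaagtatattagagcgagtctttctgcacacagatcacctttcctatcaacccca
Fabp1: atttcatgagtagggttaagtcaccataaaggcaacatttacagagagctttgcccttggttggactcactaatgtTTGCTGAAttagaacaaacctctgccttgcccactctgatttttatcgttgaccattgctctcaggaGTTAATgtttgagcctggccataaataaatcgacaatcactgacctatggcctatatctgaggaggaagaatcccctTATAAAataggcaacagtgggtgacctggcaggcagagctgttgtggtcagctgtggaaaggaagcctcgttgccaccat
Hpx: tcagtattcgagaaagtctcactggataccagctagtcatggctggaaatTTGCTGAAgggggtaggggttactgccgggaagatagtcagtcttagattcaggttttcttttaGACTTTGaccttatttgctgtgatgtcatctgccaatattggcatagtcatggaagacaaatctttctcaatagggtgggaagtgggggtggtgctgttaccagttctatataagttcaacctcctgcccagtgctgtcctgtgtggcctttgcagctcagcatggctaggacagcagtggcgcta
Ass1: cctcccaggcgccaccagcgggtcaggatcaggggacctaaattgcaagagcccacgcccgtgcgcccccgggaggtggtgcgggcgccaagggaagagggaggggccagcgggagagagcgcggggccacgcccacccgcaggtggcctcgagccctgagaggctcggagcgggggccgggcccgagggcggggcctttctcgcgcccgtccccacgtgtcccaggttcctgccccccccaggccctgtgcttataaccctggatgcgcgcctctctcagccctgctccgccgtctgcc

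The HNF1 motif was present in the promoters of 9 of the 25 members (36%), against 7.20% of all 27025 promoters of the same length. The 9 were Alb, Serpina1a, Serpina1c, Vtn, Fabp1, Pck1, G6pc, F2 and Itih1. The C/EBP motif was present in 7 of 25 (28%), against 10.8% of all promoters, and the part of the HNF4 site in 5 of 25, against 4.36%. The TATAAA letters were present in 10 of 25 members, against 14.2% of all promoters, anywhere in the window and on either strand. On the plus strand they began at -31 in Cyp2e1, -30 in Fabp1 and -29 in Cyp1a2 and G6pc, counted from the start of the gene. In the other members with a match they lay elsewhere or on the minus strand. The Alb promoter held the HNF1, C/EBP and HNF4 letters, the Fabp1 promoter the HNF1, TATA and C/EBP letters and the Hpx promoter the C/EBP and HNF4 letters, while the Ass1 window held none of the 4. A match is a match of letters in this window and says nothing of binding.

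Counted reads per library ranged from 8106344 to 54906212, with a median of 27175852, and no 2 libraries were identical. The labelled tissues were checked against marker genes. Hepatocyte markers (10 genes, all members) summed to 9099 to 38970.4 RPKM in M6 intracardiac liver metastases and 27787 to 47093 RPKM in their adjacent livers. One disagreement with a label touched the members. The 2 libraries labelled as lung metastases of M6 intracardiac animal 1274 held 3.51% and 3.00% of their reads on the 32 genes, whereas no other library outside liver exceeded 0.0928%. Sftpc, a lung epithelial gene, was at 0 and 0.0436 RPKM in them, against 1269 to 8066 RPKM in the 6 M6 orthotopic lung metastases, and Clec4f, a Kupffer cell gene, was at 16.5 and 12.4 RPKM. Over 14067 genes, their Pearson r reached 0.980 and 0.982 with M6 liver metastases, against at most 0.848 and 0.865 with M6 orthotopic lung metastases. No comparison below uses these 2 libraries.

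**Figure D1:**
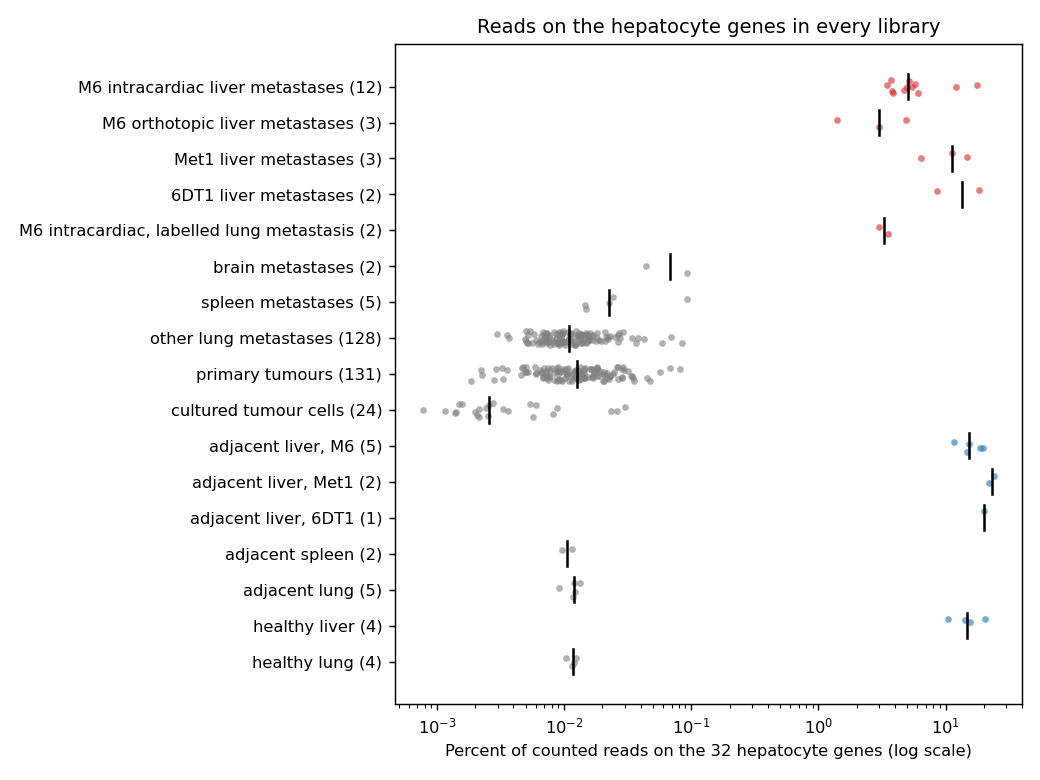
Percent of counted reads that fell on the 32 hepatocyte genes in every library, on a log scale, by kind of sample, with the number of libraries in brackets and the median as a black bar. Liver metastases (red) sit between 1.39% and 18.4%, adjacent and healthy livers (blue) between 10.5% and 24.0%, and the 2 libraries labelled lung metastasis of animal 1274 sit with the liver metastases.

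In the 12 normal livers, 8 adjacent and 4 healthy, the members differed widely in level. Alb, the main plasma carrier protein, was the highest, with a lowest, median and highest level of 10759, 19243 and 27631 RPKM. Serpina1c and Serpina1a, copies of the alpha-1 antitrypsin gene, followed with medians of 6468 and 4766 RPKM. Their reads can be split between near-identical copies, so the level of each is uncertain. The apolipoprotein genes Apoa2 and Apoa1 had medians of 3802 and 3671 RPKM. At the low end were G6pc, the last enzyme of glucose release, at 42.9 RPKM and Hal, which starts histidine breakdown, at 29.3 RPKM. Levels between genes depend on the gene model lengths the authors divided by, for example 3873 bases for Alb as recovered from the table.

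Members differed in how far the 12 livers spread. Itih3, an inter-alpha-trypsin inhibitor chain, varied most, 10.8-fold between the lowest and the highest liver, followed by G6pc (8.25-fold), the haem carrier gene Hpx (6.75-fold), Cyp1a2 (6.62-fold) and Tat (6.42-fold). Cps1, the first enzyme of the urea cycle, varied least, 1.84-fold. Ahsg, the fetuin-A gene, was also narrow, at 2.13-fold.

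Healthy liver and healthy lung show how far each member is restricted to liver. All 32 members were higher in healthy liver, in which 10.4% of 12070 tested genes were called higher and 81.7% lower than in healthy lung. The count supports nothing, since 22 of the 32 were under 1 RPKM in every lung and entered the test through their liver level. The other 10 members reached 1 RPKM in at least 1 lung. Apoc1, a small apolipoprotein also made by macrophages, was at 4877, 3662, 3811 and 2325 RPKM in healthy livers and at 30.2, 23.4, 28.7 and 24.1 RPKM in healthy lungs. Ass1, a urea cycle enzyme used in many tissues to make arginine, was at 410.2, 370.5, 343 and 336 RPKM in healthy livers and at 8.20, 12.9, 13.3 and 12.5 RPKM in lungs. Fabp1, a fatty acid binding protein, was at 5636, 4492, 5447 and 2505 RPKM in healthy livers and at 14.9, 15.4, 17.5 and 1.76 RPKM in lungs. Liver and lung values did not overlap for these 3 genes, and Hpd and G6pc were at 0 in all 4 lungs.

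In M6 tumours away from the liver most members were at or near 0. In the 6 M6 orthotopic primary tumours, 27 of the 32 were under 1 RPKM in every animal, and Ttr, Cyp1a2, Cps1, G6pc, Tat and Otc were at 0 in every one. The 5 that reached 1 RPKM in at least 1 primary tumour were Apoc1, Cyp2e1, Pck1, Hal and Ass1. In the cultured M6 line Ass1 was the one member above 1 RPKM, at 5.05 RPKM, with Alb and Apoa2 at 0.

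M6 intracardiac liver metastases held RNA of all 32 genes. All were called higher than in M6 orthotopic primary tumours (7 and 6 animals), a direction in which 11.2% of 11420 tested genes were called, and 30.5% were called lower. Since most members entered the test through the metastases, the count describes these samples and supports nothing further. Route of injection and host strain entry differ between these groups as well. Alb had a lowest, median and highest level of 3445, 4982 and 18384 RPKM in intracardiac liver metastases, and 0, 0.0231 and 0.0996 RPKM in primary tumours. Ass1 had a lowest, median and highest of 96.8, 132 and 574 RPKM in the metastases and 6.11, 6.57 and 10.4 RPKM in the primary tumours, a difference of 4.48 ± 0.35 (SE) on the log2(RPKM + 1) scale (limma adjusted p = 2.31e-08). Hal differed least, with 3.67, 8.50 and 18.2 RPKM in the metastases and 0.378, 1.11 and 2.14 RPKM in the primary tumours, a log2 difference of 2.18 ± 0.30 (adjusted p = 2.07e-05). For none of these genes did the groups overlap.

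In the 3 orthotopic animals that gave liver metastasis, primary tumour and lung metastasis, the members were again high in liver metastases. In liver metastases 30 members were called higher than in the paired primary tumours, a direction in which 6.05% of 11381 genes were called, with 7.25% called lower. Against paired lung metastases 30 were called higher, with 4.19% of 11540 genes called higher and 4.19% lower. G6pc did not pass the filter on low values in either. Both comparisons share the same liver libraries, and 27 and 16 of the members were under 1 RPKM in all primary tumours and in all lung metastases of these animals.

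Hal was the exception in both. It was at 1.58, 2.88 and 7.16 RPKM in the liver metastases of animals ms870, ms874 and ms878, at 2.11, 2.14 and 0.518 RPKM in their primary tumours and at 3.15, 4.24 and 5.49 RPKM in their lung metastases. The log2 difference was 0.82 ± 0.54 (SE) from primary tumours (limma adjusted p = 0.406) and -0.26 ± 0.27 from lung metastases (adjusted p = 0.704), and the values overlapped in both. Ass1, by contrast, was at 36.3, 34.0 and 108 RPKM in these liver metastases, at 10.4, 8.26 and 6.16 RPKM in the primary tumours and at 8.55, 12.4 and 7.67 RPKM in the lung metastases. Its log2 difference was 2.52 ± 0.47 from primary tumours (adjusted p = 0.0273) and 2.33 ± 0.43 from lung metastases (adjusted p = 0.0248).

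The lung metastasis of animal ms878 held small amounts of several members. Alb was at 5.54 RPKM in that library, at 0.879 RPKM in the lung metastasis of animal ms874 and at 0 in that of animal ms870. Apoa1 followed the same order, at 4.24, 0.401 and 0.115 RPKM. The liver metastases of these 3 animals, in the same order, had Alb at 5017, 2244 and 1256 RPKM.

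The main comparison sets M6 liver metastases against adjacent liver of the same 5 animals, to ask how the metastasis samples and the liver around them differed in these genes. All 32 members fell in the metastases. In this comparison 11.3% of 10970 tested genes were called lower and 81.9% higher, and the median log2 difference was -1.75 over the members and 1.35 over all genes tested. Member differences ranged from -2.10 for Tat to -0.70 for Hpx. Rescaling each library by its median ratio moved the median of all genes by -1.04 log2. Among called genes only, the share called higher moved from 87.9% to 64.8%. All 32 members were still called lower, as were 29.1% of 10617 genes tested then.

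Plasma carriers are secreted into the blood. Alb was at 4982, 3445, 3901, 5556 and 4290.4 RPKM in the metastases of animals 1266, 1274, 1278, 1294 and 1297, and at 19387, 18141, 12479.5, 21158 and 10759 RPKM in their adjacent livers. The lowest adjacent liver was above the highest metastasis, and the log2 difference was -1.86 ± 0.22 (SE, limma adjusted p = 1.37e-09). Ttr, the thyroxine carrier, averaged 817 RPKM in metastases and 2644 RPKM in adjacent liver. Ahsg, Ambp, which encodes bikunin and a small lipocalin, and Vtn, the vitronectin gene, had medians over the 5 animals of 44.1%, 40.8% and 43.6% of the adjacent liver.

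Hpx, which encodes the haem scavenger haemopexin, had the smallest difference of the 32. It was at 511, 365, 453, 706 and 477 RPKM in the metastases of the 5 animals in the same order, and at 1463, 415, 799.5, 710.5 and 942 RPKM in adjacent liver. The groups overlapped, and the paired log2 difference was -0.70 ± 0.20 (limma adjusted p = 0.00175). Its share of the adjacent level ranged from 34.9% in animal 1266 to 99.3% in animal 1294, with a median of 56.6%, the highest median of the 32. In the primary tumours Hpx lay between 0.0438 and 0.218 RPKM. Differences between members were not tested.

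Apolipoproteins carry lipids in the blood. Apoa1, the main protein of high-density lipoprotein, was at 1362, 952, 1666, 1581 and 1527 RPKM in metastases and at 4634, 2157, 3240.2, 4102 and 2763 RPKM in adjacent liver, a log2 difference of -1.23 ± 0.20 (limma adjusted p = 5.94e-07) with no overlap. Apoa2, its partner in the same particle, was at 1311, 911, 968, 1216 and 1281 RPKM in metastases and at 4832, 4068, 3082, 5150.3 and 3374 RPKM in adjacent liver, a log2 difference of -1.84 ± 0.19. Apob, Apoc1, Apoc3 and Apoh had log2 differences of -1.58, -1.71, -1.79 and -1.64.

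Protease inhibitors and coagulation factors are also secreted by the liver and act in the blood. Serpina1a was at 1574, 1046, 1160.0, 1611 and 1611 RPKM in metastases and at 6376, 4226, 5498, 5306 and 3732 RPKM in adjacent liver, with no overlap and a log2 difference of -1.84 ± 0.20 (limma adjusted p = 2.51e-10). Serpina1c had a log2 difference of -2.03, Serpina3k of -1.60, Itih1 of -1.54 and Itih3 of -1.35. F2, which encodes prothrombin, was at 112, 82.9, 104, 137 and 116 RPKM in metastases and at 421, 259.8, 295, 376 and 245 RPKM in adjacent liver, a log2 difference of -1.51 ± 0.16 (adjusted p = 2.08e-10) with no overlap. Plg, the plasminogen gene, and Kng1, the kininogen gene, had log2 differences of -1.62 and -1.64.

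Enzymes of both lobule zones fell. Cyp2e1, a pericentral cytochrome P450, was at 405, 424, 413, 473 and 438 RPKM in metastases and at 1531, 2029, 1381, 2247 and 1015 RPKM in adjacent liver (log2 difference -1.87 ± 0.19, limma adjusted p = 3.17e-11). Cyp1a2, another pericentral P450, was at 26.3, 32.1, 22.9, 28.4 and 27.6 RPKM in metastases and at 89.9, 142, 80.5, 128 and 65.7 RPKM in adjacent liver (-1.79 ± 0.16, adjusted p = 2.00e-12). Cps1, periportal, was at 41.6, 44.8, 38.1, 58.0 and 44.2 RPKM in metastases and at 177, 217, 218, 195 and 127 RPKM in adjacent liver (-2.01 ± 0.16, adjusted p = 2.59e-13). The groups did not overlap for any of these 3. Cyp3a11, the main xenobiotic P450 of the list, and Otc, which makes citrulline in the urea cycle, had log2 differences of -1.92 and -1.90.

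Enzymes of glucose release and amino acid breakdown differed between animals in both tissues. Pck1, the committed enzyme of glucose synthesis, was at 119, 54.4, 179, 98.1 and 86.7 RPKM in metastases and at 500.1, 211, 633, 314 and 235 RPKM in adjacent liver. The order of the 5 animals was the same in both tissues, with 1278 highest and 1274 lowest in each, and the log2 difference was -1.78 ± 0.16 (limma adjusted p = 3.05e-12). Tat, which starts tyrosine breakdown and is induced by glucocorticoids, was at 83.1, 34.1, 171, 51.0 and 62.2 RPKM in metastases and at 366, 171, 830.4, 226 and 199.8 RPKM in adjacent liver. Animal 1278 was again highest in both, so the groups touched although every pair fell (-2.10 ± 0.16, adjusted p = 4.48e-14). G6pc was at 18.6, 4.38, 16.9, 14.8 and 14.0 RPKM in metastases and at 67.9, 8.25, 44.4, 45.5 and 41.3 RPKM in adjacent liver, and animal 1274 was lowest in both. Hpx, Tat and G6pc were the 3 members whose groups overlapped. For the other 29 every metastasis lay below every adjacent liver, where 8.28% of all tested genes did so and 76.6% lay wholly above.

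Fabp1 binds fatty acids within the hepatocyte, and Ass1 makes argininosuccinate in the urea cycle. Fabp1 was at 647, 544, 618, 588 and 594 RPKM in metastases and at 2414, 2468, 1605, 2441 and 1734 RPKM in adjacent liver (-1.81 ± 0.19, limma adjusted p = 6.53e-11). Ass1 was at 132, 96.8, 132, 131 and 141 RPKM in metastases and at 602, 439, 640.3, 581 and 362 RPKM in adjacent liver (-2.02 ± 0.17, adjusted p = 5.03e-13). Neither overlapped. Ass1 had the lowest median share of the 32, at 22.1% of adjacent liver, with Serpina1c and Tat at 22.6% each. Hpd and Hal, which act in tyrosine and histidine breakdown, had log2 differences of -1.89 and -1.92.

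**Figure D2:**
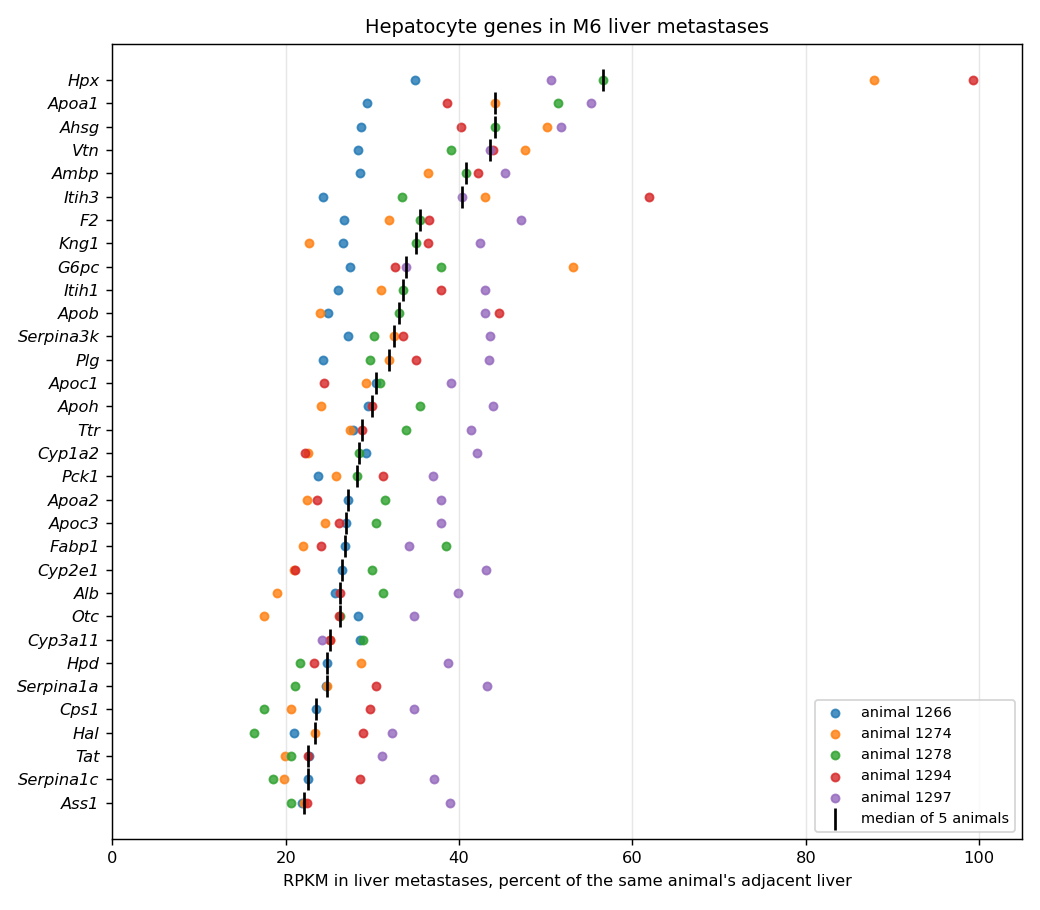
RPKM of each of the 32 members in M6 liver metastases as a percent of adjacent liver of the same animal, with 1 coloured point per animal and the median as a black tick, ordered by the median. Medians run from 22.1% for Ass1 to 56.6% for Hpx, and animal 1297 has the highest point of the 5 for 25 members.

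Within an animal the percents of the members spread around their median, least in 1266 (21.0% to 34.9%) and most in 1294 (21.0% to 99.3%). The median over the 32 members was 26.7% in animal 1266, 24.9% in 1274, 31% in 1278, 29.9% in 1294 and 40.9% in 1297. Per library the medians ranged from 24.1% to 49.4%, and the 2 libraries of animal 1297 differed most, at 31.5% and 49.4%. Tumour markers were higher in the metastases than in adjacent liver. Between libraries of an animal, more tumour marker RNA did not always go with a lower percent, as given below. The 5 epithelial tumour markers were Krt8, Krt18, Epcam, Krt14 and Cldn7. They summed to 283 to 1116 RPKM in the 7 animals' metastases and 55.4 to 76.1 RPKM in M6 adjacent livers. Healthy livers had sums of 47.1 to 72.5 RPKM, so the sum is not of tumour alone. The 5 proliferation markers summed to 73.9 to 246 RPKM in the 7 animals' metastases and 0.766 to 2.09 RPKM in M6 adjacent livers. For both lists the lowest sum in metastases was in animal KH01, which gave no adjacent liver. Kupffer cell markers summed to 21.3 to 46.0 RPKM in the 7 animals' metastases, highest in animal 1, which gave no adjacent liver. Their sums were 30.7 to 52.0 RPKM in adjacent livers. In the paired animals 3 of the 5 markers were called lower, with a median log2 difference of -0.39. The part of these other cells in the members' differences was not tested.

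Other liver genes were counted from lists of known function that hold no members. Of all 10970 genes tested in this comparison, 81.9% were called higher and 11.3% lower, with a median log2 difference of 1.35. Bile acid genes fell in 10 of 10 tested, periportal enzymes in 11 of 11 and amino acid breakdown genes in 12 of 12, with median log2 differences of -1.61, -1.68 and -1.75. Coagulation genes fell in 12 of 13 (median -1.50), complement genes in 15 of 16 with 1 higher (-1.33) and acute phase genes in 17 of 21 with 2 higher (-1.46). Pericentral enzymes fell in 8 of 11 with 1 higher (-1.19). All 8 tested female-biased liver genes fell (-2.19), as did 3 of 4 male-biased genes (-1.35). Hepatocyte transcription factors fell in 11 of 13 (-1.03), with Hnf4a at 20.0 RPKM in metastases and 59.0 RPKM in adjacent liver, and Foxa1, a factor also used in mammary epithelium, rose to 7.95 RPKM in metastases against 2.39 RPKM in adjacent liver (limma adjusted p = 5.52e-11). Genes of fasting were mixed, 4 lower and 2 higher of 9 (median 0.55), including Ppargc1a, a coactivator of gluconeogenic genes, at 4.19 RPKM in metastases and 0.992 RPKM in adjacent liver (adjusted p = 4.77e-12). Most tested genes were higher here, and whether Foxa1 and Ppargc1a rose more than other genes was not tested.

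Both remaining M6 intracardiac animals, 1 and KH01, stood apart from the 5 above. Each gave 1 metastasis library and no adjacent liver. The members took 17.7% of reads in animal 1 and 12.0% in KH01, against 3.63% to 5.58% in the other 5 animals' metastases. Set against the mean of the 5 M6 adjacent livers, the median member was at 83.1% in animal 1 and 73.4% in KH01.

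The pair differed in which members were high. In animal 1 Hpx was at 3873 RPKM, 447% of the mean adjacent liver, Apoa1 at 6230.1 RPKM and Itih3 at 357 RPKM, while Cyp1a2 was at 5.19 RPKM, 5.13% of adjacent liver, and Cyp2e1 at 457 RPKM. In KH01 Hpx was at 500.1 RPKM and Itih3 at 96.4 RPKM, while Cyp1a2 was at 74.1 RPKM, Cyp2e1 at 1245 RPKM and Cps1 at 214 RPKM, 115% of adjacent liver. A pair of acute phase genes, named after their values were seen, was higher in animal 1: Saa1 was at 2368 RPKM in animal 1, 23.6 RPKM in KH01 and 7.56 to 149 RPKM in the M6 adjacent livers, and Lcn2 was at 1056, 24.8 and 6.51 to 65.3 RPKM in the same order. These are single libraries, and no test was made. Both libraries held tumour markers, with epithelial sums of 699 RPKM in animal 1 and 283 RPKM in KH01.

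**Figure D3:**
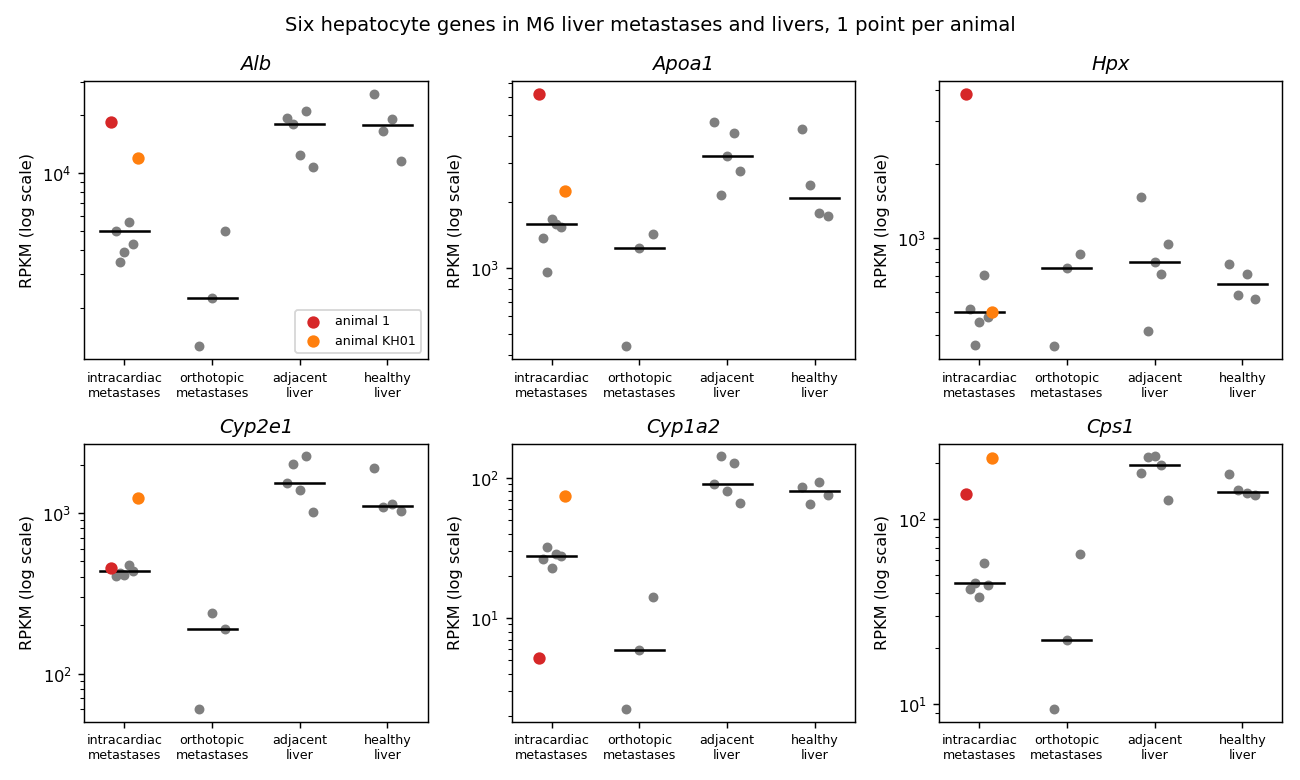
RPKM on a log scale of 6 members, with 1 point per animal and the group median as a bar, in M6 intracardiac and orthotopic liver metastases, M6 adjacent livers and healthy livers. Animal 1 (red) is highest for Hpx and Apoa1 and lowest of its group for Cyp1a2, whereas KH01 (orange) is highest of the metastases for Cyp2e1, Cyp1a2 and Cps1.

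Met1 liver metastases differed between their 2 animals. In animal 6 the median member was at 25.9% and 50.6% of its adjacent liver in the 2 libraries, and Hpx was the highest in the first, at 99.8%. In animal 8 the median was 48.5%, but the members ranged from 1.75% for Cps1 to 219% for Apoc3. Cps1 was at 3.55 RPKM in the animal 8 metastasis and 202 RPKM in its adjacent liver, and Apob was at 19.3 and 163 RPKM. Apoc3 was at 4404 RPKM in that metastasis and 2015 RPKM in adjacent liver, Apoc1 at 4136 and 2269 RPKM and Apoa2 at 5282 and 2985 RPKM.

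The percents of animal 8 followed gene model length. Spearman's rho with model length was -0.66 over the 32 members, which share 1 pair of libraries, and the 16 members with shorter models had a median of 71.4% against 41.9% for the 16 longer. In the other liver metastasis libraries rho ranged from -0.55 to 0.36. Whether RNA quality differed was not tested. The erythroid markers summed to 2103 RPKM in this metastasis, against 488 RPKM in its adjacent liver. With 2 animals no test of Met1 alone was made. All 32 members were called lower with the M6, Met1 and 6DT1 animals fitted together, where 11.5% of 9666 genes were called lower, and also without animal 8, where 11.3% of 10196 genes were.

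In the 6DT1 animal the 2 metastasis libraries had medians of 72.5% and 47.0% of adjacent liver, and Alb was at 24474 and 8471 RPKM in them, against 22413 RPKM in adjacent liver. The epithelial tumour markers summed to 146 and 294 RPKM in the same 2 libraries, against 107 RPKM in the liver. The 6DT1 library with more tumour marker RNA had the lower median, as in M6 animal 1266 and Met1 animal 6. In M6 animals 1274, 1278, 1294 and 1297 the library with more tumour marker RNA had the higher median. The 6DT1 values come from 1 animal, with no replicate check.

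Route of injection was compared between M6 intracardiac (7 animals) and orthotopic (3 animals) liver metastases. The members took 3.63% to 17.7% of reads in the intracardiac animals, and 1.39%, 2.99% and 4.91% in the orthotopic animals ms870, ms874 and ms878, so the ranges overlapped. Of the members 4, Apoa2, Apoh, Cyp2e1 and Fabp1, were called higher in intracardiac metastases, none was called lower and 28 were not called. After median-ratio rescaling Fabp1 alone was called, and with no filter on low values none of the 32 was. In this comparison 2.0% of 11665 genes were called higher (1.61% after rescaling and 0.27% with no filter) and 0.694% lower, and the median log2 difference was 1.38 over the members and -0.19 over all genes tested. Route, host strain entry and any difference between the 2 experiments cannot be told apart. Sex and age, which the labels used here do not give, may also differ and cannot be told apart from these.

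Fabp1 had a lowest, median and highest level of 544, 618 and 901 RPKM in intracardiac metastases, and was at 63.9, 158 and 327 RPKM in orthotopic metastases. The groups did not overlap, and the log2 difference was 2.10 ± 0.41 (SE, limma adjusted p = 0.0187). Apoa2 had 911, 1281 and 2248 RPKM in intracardiac metastases, and 132, 358 and 707 RPKM in the 3 orthotopic ones (2.01 ± 0.46, adjusted p = 0.0329), with no overlap. Apoh, beta-2-glycoprotein I, had 183, 299.8 and 944 RPKM, and 48.0, 108 and 161 RPKM in the orthotopic ones (1.93 ± 0.49, adjusted p = 0.0487). Cyp2e1 had 405, 438 and 1245 RPKM, and 60.1, 239.8 and 191 RPKM in the orthotopic ones (1.84 ± 0.45, adjusted p = 0.0435). The largest member difference, 2.28 ± 0.73 for Tat, did not pass (adjusted p = 0.103), and Hpx had 365, 500.1 and 3873 RPKM in intracardiac and 361, 756 and 863 RPKM in orthotopic metastases (0.10 ± 0.61, adjusted p = 0.933). Without animals 1 and KH01, 7 members were called higher. The count was 0 without animal ms870 and 12 without animal ms878, so it turned on which of the orthotopic animals was kept. The share of all genes called in these fits was not counted, so these counts say nothing of the members in particular.

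Hpx was again the highest member relative to liver in each orthotopic animal, at 41.7%, 87.3% and 99.6% of the mean M6 adjacent liver, where the median members were at 6.72%, 15.2% and 26.4%. Among other liver genes 6 of 8 tested female-biased genes were higher in intracardiac metastases with a median log2 difference of 2.59, and 0 of 4 male-biased genes were called (0.77). A1bg, a female-biased plasma protein gene, averaged 114 RPKM in intracardiac and 0.190 RPKM in orthotopic metastases (6.29 ± 0.45, limma adjusted p = 1.52e-05). Pericentral enzymes were higher in 5 of 11 (1.16), including Cyp2a5 at 52.8 RPKM in intracardiac and 1.76 RPKM in orthotopic metastases, and periportal enzymes in 2 of 11 (1.31), including Cyp2f2 at 57.5 RPKM in intracardiac and 2.32 RPKM in orthotopic metastases. Bile acid genes were higher in 4 of 10 (1.83), coagulation genes in 3 of 13 (1.33), complement genes in 3 of 16 (0.83) and acute phase genes in 2 of 21 (1.55). Amino acid breakdown had 1 of 12 (1.49), transcription factors 1 of 13 (0.89) and fasting genes 1 of 9 (0.39), and none of these 11 lists had a gene called lower. Neutrophil markers went the other way, with 3 of 5 lower in intracardiac metastases and marker sums of 6.85 to 27.0 RPKM in intracardiac and 48.0 to 204 RPKM in orthotopic animals.

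Adjacent liver was compared with healthy liver to ask whether the liver around metastases differed from that of mice without tumours (8 and 4 animals). One member, Fabp1, was called, and it fell in adjacent liver. None was called higher, in a comparison where 0.723% of 8713 genes were called higher and 0.413% lower. The median log2 difference was 0.24 over the members and 0.02 over all genes tested.

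Fabp1 was at 2414, 2468, 1605, 2441 and 1734 RPKM in M6 adjacent livers, 1929 and 1246 RPKM in Met1 adjacent livers and 1468 RPKM in the 6DT1 adjacent liver, against 2505, 4492, 5447 and 5636 RPKM in healthy livers. It was the one member whose groups did not overlap, where 1.04% of all genes lay wholly above and 0.402% wholly below, although the margin between 2468 and 2505 RPKM was small. The log2 difference was -1.21 ± 0.27 (SE, limma adjusted p = 0.0199), and it was called in 9 of 12 fits that left out 1 animal. Fabp1 was not called when the 5 M6 adjacent livers alone were set against healthy liver.

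Other members had large differences that did not pass. Itih3 averaged 268 ± 196 RPKM in adjacent and 92.3 ± 23 RPKM in healthy livers (SD, n = 8 and 4), a log2 difference of 1.30 ± 0.43 (limma adjusted p = 0.207). Apoa1 had 0.88 ± 0.34 (adjusted p = 0.271), Hpx 0.83 ± 0.42 (adjusted p = 0.501) and Cyp3a11 -0.83 ± 0.26 (adjusted p = 0.128). Apoc1 averaged 2230.5 ± 359 RPKM in adjacent and 3669 ± 1047 RPKM in healthy livers (-0.69 ± 0.26, adjusted p = 0.240). Alb, at 0.10 ± 0.30, and G6pc, at -0.07 ± 0.52, had the smallest sizes named here, with a wide error for G6pc.

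After median-ratio rescaling, 8 members were called higher in adjacent liver (Ttr, Serpina1a, Serpina1c, Ambp, Vtn, Kng1, Itih1 and Itih3) and 3 lower (Fabp1, Apoc1 and Cyp3a11). Of all 8557 genes tested on that scale, 8.48% were called higher and 7.29% lower. The differences themselves moved little, for Serpina1a to 0.72 from 0.75 and for Itih3 to 1.27 from 1.30. Of the other lists, 1 acute phase gene, the metallothionein Mt1, was called higher in adjacent liver, and no gene of the complement, coagulation, bile acid, transcription factor, pericentral, periportal, amino acid, fasting, male-biased or female-biased lists was called. Neutrophil markers summed to 2.55 to 48.6 RPKM in adjacent and 1.25 to 2.99 RPKM in healthy livers, and their part in the members' values was not tested.

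**Figure D4:**
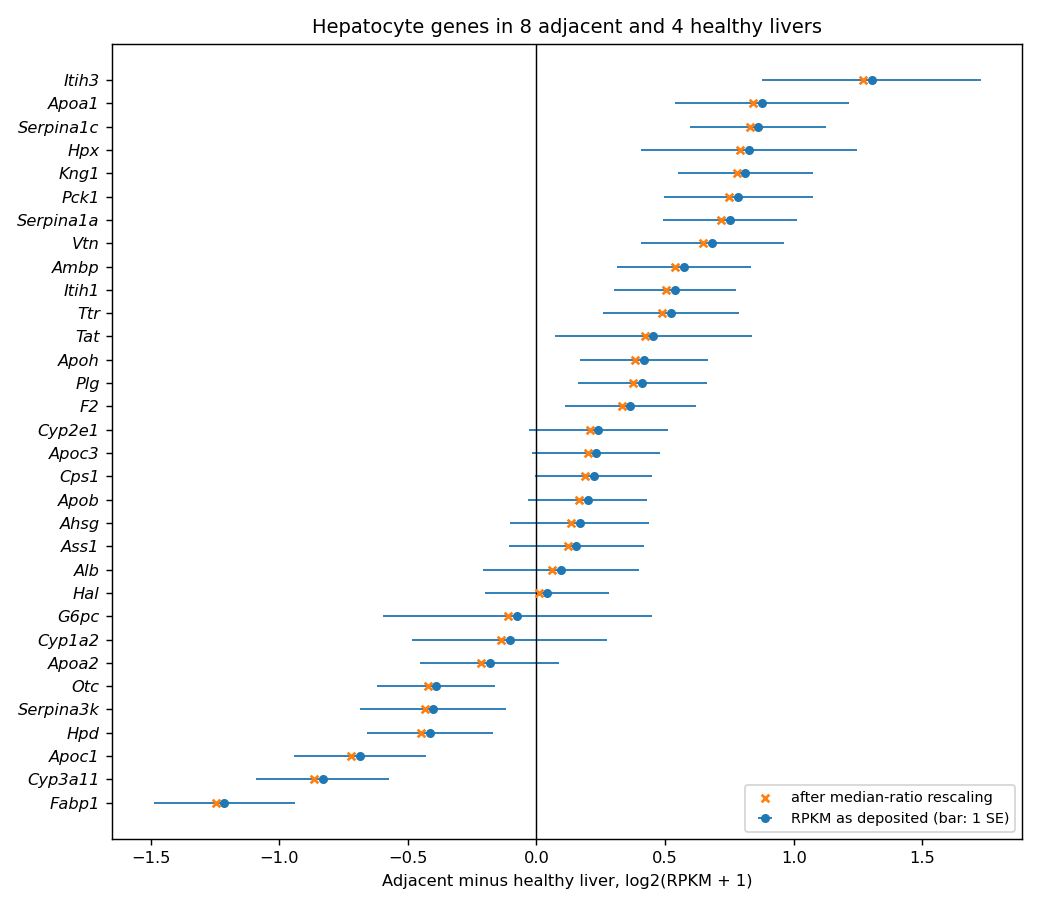
Difference between adjacent and healthy liver for the 32 members on the log2(RPKM + 1) scale, with bars of 1 SE, and the same difference after median-ratio rescaling as crosses. Fabp1, at -1.21, is the only member called with the deposited values, and Itih3, at 1.30, has the largest difference upward with a wide error.

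Outside the liver the members were traces in most of 301 libraries, but not all were silent. Ass1 was at 1 RPKM or more in 290 libraries, Apoc1 in 259, Hal in 207, Cyp2e1 in 113 and Serpina3k in 98. Apob, Cyp1a2, Cps1, G6pc and Otc never reached 1 RPKM. Apoc1 was highest in a lung metastasis of the MMTV-Neu model, at 967 RPKM, and Ass1 in an MMTV-PyMT FVB primary tumour, at 189 RPKM. Single libraries of other tumours also held members, with Pck1 at 88.4 RPKM and Cyp2e1 at 35.3 RPKM in the same HRM1 primary tumour, and Serpina1a at 72.0 RPKM in a Met1 primary tumour.

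The members took 0.0920% of reads in the M6 brain metastasis and 0.0437% in the Met1 brain metastasis, and no normal brain was analysed here. The source of these reads was not tested. In the M6 brain metastasis Alb was at 70.9 RPKM, Apoa2 at 39.5 RPKM, Fabp1 at 31.8 RPKM and Apoa1 at 29.2 RPKM, and 13 of the 32 members had their highest level outside liver in that library. In the Met1 brain metastasis Itih3, at 61.7 RPKM, and Vtn, at 12.3 RPKM, made up most of the signal and Alb was at 4.42 RPKM. Both brain libraries were mostly brain by their markers, with neuron and glia sums of 1518 and 2308 RPKM and epithelial tumour sums of 5.01 and 17.5 RPKM.

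Among 5 spleen metastasis libraries the Met1 one of animal 6 was highest, at 0.0928% of reads, with Alb at 82.7 RPKM, Serpina1a at 52.2 RPKM and Apoa1 at 27.4 RPKM. Its epithelial tumour markers summed to 3.45 RPKM, against 626 to 1250 RPKM in the other 4, so its tumour markers go against its label. The other 4 held 0.0147% to 0.0241% of reads on the members, and the 2 Met1 adjacent spleens 0.00959% and 0.0116%. Serpina1a was at 7.72 to 20.9 RPKM in those 4 and 6.54 and 10.6 RPKM in the adjacent spleens, above Alb in 3 of those 4 libraries and in both spleens. These are single animals, and no test was made.

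Lung metastases were compared with primary tumours of the same animals over 10 models, with 1 mean paired difference per model. The filter on low values passed 4 members and left out 28. Apoc1 was called higher in lung metastases, Cyp2e1 and Ass1 were called lower and Hal was not called, where 11.7% of 11467 genes were called higher and 19.4% lower. After median-ratio rescaling Ass1 was not called (limma adjusted p = 0.0814), while Apoc1 and Cyp2e1 were, and 16.3% of all genes were called higher and 12.8% lower. With no filter on low values Apoc1 (adjusted p = 0.0537) and Ass1 (adjusted p = 0.0766) were not called and Cyp2e1 was, with 10.7% of genes higher and 12.8% lower. That fit also called higher some members that the filter had left out, and their count is given below.

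Apoc1 averaged 38.0 RPKM in lung metastases and 25.8 RPKM in primary tumours, with a log2 difference of 0.92 ± 0.28 (SE over 10 models, limma adjusted p = 0.0273). It was higher in 8 of 10 models, from 2.65 in M6 and 2.06 in Mvt1 to -0.36 in the MMTV-PyMT FVB model. It was not called without 4T1 (adjusted p = 0.0614) or without Mvt1 (adjusted p = 0.066). Cyp2e1 averaged 0.799 RPKM in lung metastases and 2.36 RPKM in primary tumours (-0.35 ± 0.08, adjusted p = 0.00594) and was lower in 10 of 10 models. Ass1 averaged 21.0 RPKM in lung metastases and 26.3 RPKM in primary tumours (-0.40 ± 0.14, adjusted p = 0.0445), lower in 7 of 10 models and higher in M6 by 0.39, and it was not called in 7 of the 10 fits that left out 1 model. Hal averaged 3.01 RPKM in lung metastases and 2.31 RPKM in primary tumours (0.28 ± 0.18, adjusted p = 0.247), with differences above 1 in 6DT1, Mvt1 and M6. Healthy lung itself held Apoc1 at 23.4 to 30.2 RPKM, Cyp2e1 at 2.02 to 2.49 RPKM, Ass1 at 8.20 to 13.3 RPKM and Hal at 0.184 to 0.382 RPKM. Adipocyte markers fell in 3 of 3 tested in lung metastases, and lung epithelial markers rose in 5 of 5. The part of lung or fat tissue in these differences was not tested.

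**Figure D5:**
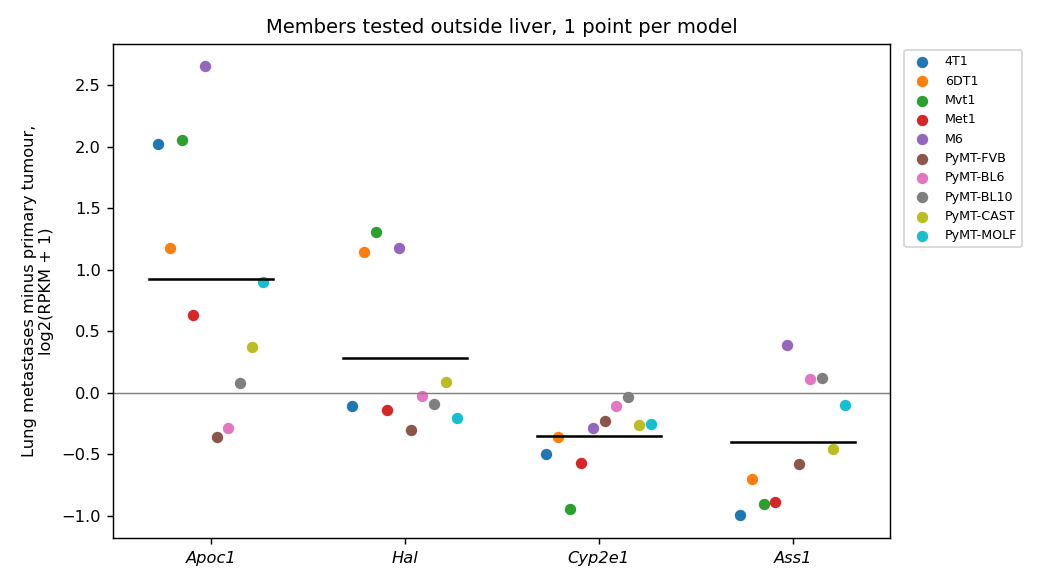
Mean paired difference between lung metastases and primary tumour on the log2(RPKM + 1) scale for the 4 members that passed the filter, with 1 coloured point per model and the mean over 10 models as a bar. All points for Cyp2e1 lie below 0, and those for Apoc1 spread from -0.36 to 2.65.

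Primary tumours were also compared with the cultured cells of the same 7 lines. Apoc1 and Hal were called higher in primary tumours, Cyp2e1 and Ass1 were not called and 28 members did not pass the filter, where 12.2% of 10735 genes were called higher and 10.1% lower. Hal averaged 3.22 RPKM in primary tumours and 0.148 RPKM in cultured cells over the 7 lines (log2 difference 1.78 ± 0.20, limma adjusted p = 0.000291), and cultured cells of every line were under 0.4 RPKM. Apoc1 averaged 4.19 RPKM in primary tumours and 0.383 RPKM in cultured cells (1.69 ± 0.29, adjusted p = 0.00418). Ass1 ranged from 0.143 RPKM in 67NR cells to 91.1 RPKM in Mvt1 cells, and its difference between primary tumours and cells was not called (0.85 ± 0.47, adjusted p = 0.212).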

How the data were processed

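RNA of 335 libraries was sequenced, per the labels' protocols with TruSeq libraries. The RPKM values were deposited by the authors. TopHat, DESeq2 and mm9 are named, with no version or role, per the submitters' processing notes. Strand is not given in the sources used here, so overlapping antisense genes cannot be told apart.

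Libraries of an animal were averaged. limma 3.58.1 (R 4.3.3, trend and robust moderation with statmod 1.5.0) was fitted to log2(RPKM + 1) over all genes that reached 1 RPKM in a number of profiles no lower than the size of the smaller group, and checked on simulated data. Animal was a block where both tissues came from the same animals. Deviations of same-animal tissues correlated by 0.13 to 0.32 in 5 of 5 M6 intracardiac pairs and over 0.1 in 2 of 3 orthotopic pairs. All member values lay within 0.02 of whole reads once multiplied by model length and depth. Tables and figures used Python 3.11.15, numpy 2.4.6, pandas 2.3.3 and matplotlib 3.10.9.

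Members described by sample were the first of each role group, or those against the majority or not called, and others named were chosen after their values were seen. The members and lists were chosen with earlier results of these data known. The lists were acute phase, complement, coagulation, bile acid, transcription factor, pericentral, periportal, amino acid breakdown, fasting, male-biased and female-biased genes. Alternatives were another pseudocount, no filter, median-ratio rescaling, no replicate block, other sets of animals and each animal or model left out.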

Additional observations from a re-analysis of the deposited data

Results flagged for a closer look

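A sample far from the rest of its group was found in 6 of 39 tests of member values or read shares. Chance gives about 1 in 20 for independent tests. These tests reuse the same animals for several members, so no excess over chance can be read from the count. In M6 intracardiac liver metastases, animal 1 was far above the other 6 animals for Apoa1, at 6230.1 RPKM, and for Hpx, at 3873 RPKM. Animal KH01 was far above them for Cyp2e1 at 1245 RPKM, for Cyp1a2 at 74.1 RPKM and for Fabp1 at 901 RPKM. Among healthy livers, 1 animal had Cyp2e1 at 1905 RPKM, above the other 3 at 1030.1 to 1139 RPKM.

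Libraries used in no comparison also held reads of the 32 genes above the control tissue. The libraries labelled M6 intracardiac lung metastasis held 3.51% and 3.00% of reads on them, against 0.0104% to 0.0125% in healthy lung. Spleen metastases held 0.0928% in Met1 animal 6, 0.0147% and 0.0227% in the libraries of Met1 animal 1, and 0.0241% and 0.0148% in M6 animals 1266 and 1274, against 0.00959% and 0.0116% in adjacent spleen. The brain metastases held 0.0920% for M6 and 0.0437% for Met1, and no normal brain was analysed here.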

How the results depend on the processing

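The counts of members called in M6 liver metastases against adjacent liver, against primary tumours and against lung metastases, and in healthy liver against lung, stayed within 1.5 times under each alternative run. No member called in the main fit or in an alternative changed direction between them. Differences that were not called could change sign, as for Alb, Cyp1a2, G6pc and Hal in adjacent against healthy liver when 1 animal was left out. Without the replicate block, 32 members were lower in M6 metastases than in adjacent liver. For intracardiac against orthotopic liver metastases, the 4 members called higher became 0 with no filter, 1 with rescaling and 7 without animals 1 and KH01, and ranged from 0 to 12 when 1 animal was left out. For adjacent against healthy liver, rescaling gave 8 higher and 3 lower, no filter and M6 livers alone gave 0 lower, and leaving out 1 animal gave 0 to 2 in either direction. For lung metastases against primary tumours, no filter gave 7 higher, where 10.7% of all genes were called higher. In the same comparison rescaling gave 1 lower, and leaving out 1 model gave 0 to 1 higher and 0 to 2 lower. For primary tumours against cells, no filter gave 5 higher. Where the share of all genes called in a fit is given neither here nor above, its count says nothing of the members in particular. The median Met1 percent was 70.0% with healthy liver as 100%, against 48.5%. The causes were not tested. Groups of 2 to 4 animals limit the precision, as does depth for members near 0.

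Rescaling moved the median of all genes by 0.37 log2 for intracardiac metastases against primary tumours, by 0.23 against orthotopic metastases and by 1.04 for liver against lung. Among called genes only, the share called higher became 61.4% from 26.9%, 56.2% from 74.2% and 34.6% from 11.3% in these 3. That share became 72.0% from 54.8% for primary tumours against cells and 56.0% from 37.6% for lung metastases against primary tumours.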
